A study of Mus musculus with 10 samples.

Results

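The genes described here encode the liver X receptors, the peroxisome proliferator-activated receptors and the vitamin D receptor, nuclear receptors that work as partners of RXR. The 6 genes Nr1h2, Nr1h3, Ppara, Ppard, Pparg and Vdr were found by their symbols among the 52636 genes of the table, each in a single row, and 5 of the 6 passed the filter on low counts that left 18455 genes to test. Vdr did not pass and is given by its counts only. The libraries came from the barrel field of the mouse primary somatosensory cortex (S1BF) at postnatal day 17, on the C57BL/6 strain, and were sequenced as whole tissue.

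Each of these receptors binds DNA together with a retinoid X receptor, RXR alpha, beta or gamma, encoded by Rxra, Rxrb and Rxrg. The liver X receptors respond to oxidised cholesterol derivatives, and the peroxisome proliferator-activated receptors to fatty acids and their products. Pairs with either can be activated through the RXR side as well, for which they are called permissive, while the vitamin D receptor pair is usually driven by calcitriol, the hormone form of vitamin D. In brain, liver X receptors are best known for cholesterol export by glia, and the peroxisome proliferator-activated receptors for lipid oxidation and for damping inflammation.

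There were 4 libraries labelled cKO, 2 labelled Hetero and 4 labelled Loxp. The cKO group carried Nex-cre and is named for the conditional knockout of Rxra. The Hetero group carried Nex-cre too and is labelled as its heterozygous form. The Loxp group carried the floxed Rxra allele, Rxratm1Krc/J, without a named Cre, and this allele is shared by all 3 groups. A difference of either Nex-cre group from Loxp therefore cannot be told apart from one due to the Cre allele itself. Nex-cre acts in excitatory neurons of the cortex, so interneurons, glia and vessel cells keep Rxra. Whether every library is a separate animal is not in the labels, so p-values measure only the spread between these samples.

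The libraries held 19332990 to 26086337 counts. Levels are given in CPM, the count of a gene scaled to the library total. Rxra, counted over the whole gene, had 29.0, 32.3, 29.3 and 32.0 CPM in cKO, 23.2 and 26.4 CPM in Hetero, and 24.5, 21.6, 28.3 and 31.8 CPM in Loxp. The libraries labelled cKO were thus not lower than those labelled Loxp in the targeted gene (log2 fold change 0.21, SE 0.112, adjusted p = 1 by edgeR's quasi-likelihood test), and the deletion named by the labels was not visible in these counts. Neurod6, the gene into which Nex-cre is inserted, had 32.9, 22.9, 38.0 and 23.9 CPM in cKO, a mean of 34.2 ± 0.277 CPM in Hetero (SD, n = 2), and 66.7, 55.7, 61.8 and 34.9 CPM in Loxp. All 6 libraries of the Nex-cre groups were below every Loxp library except that cKO 3 lay above Loxp 4 (log2 fold change -0.89, SE 0.193, for cKO and -0.68, SE 0.241, for Hetero, each against Loxp, adjusted p = 1 by edgeR). The group names below stand for the labels, and each direction given rests on them. Excitatory neuron markers fitted the labelled tissue, with all 10 of 10 tested and a summed level of 6300 to 6830 CPM in cKO, 6070 to 6480 CPM in Hetero and 5630 to 6760 CPM in Loxp. Hetero 2 and cKO 2 stood apart. In Hetero 2 the choroid plexus markers summed to 760 CPM, against 4.55 to 24.6 CPM in the other libraries. The cKO 2 library differed from the other cKO libraries by a chi-square per gene of 29.6 to 36.6, where those differed among themselves by 5.11 to 10.6. It had 4.7 CPM of Ptgds, a prostaglandin synthase abundant in meninges and choroid plexus, against 194 to 300 CPM in the other cKO libraries, and its meningeal markers summed to 80 CPM, against 144 to 159 CPM. The Loxp group was not uniform either, with a chi-square per gene of 11.4 to 23.6 between its libraries. Loxp 2 had 123 CPM of Ptgds, against 224 to 345 CPM in the other Loxp libraries. Its interneuron markers summed to 752 CPM, against 1060 to 1110 CPM, but its meningeal markers, at 148 CPM, lay inside the Loxp range. The receptor fold changes and the counts of pathway genes are also given without Hetero 2 or cKO 2. The counts of pathway genes were not recomputed without Loxp 2.

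Per length, the 6 receptors formed a wide range. The authors' FPKM, fragments scaled to transcript length and library depth, averaged 13.8 ± 0.848 for Nr1h2 over the 10 libraries (SD, n = 10 here and in the next 5 values), which placed it at rank 3800 of the 52636 genes. Nr1h2 encodes LXR beta, the liver X receptor found in most tissues. Ppard, which encodes the broadly expressed PPAR delta, followed at 9.93 ± 0.878 FPKM and rank 4939. Pparg, the gene of the adipocyte regulator PPAR gamma, averaged 2.58 ± 0.687 FPKM and rank 10318. Nr1h3, which encodes LXR alpha, known from liver and macrophages, averaged 1.12 ± 0.229 FPKM at rank 13113, and Ppara, the gene of the fatty acid oxidation regulator PPAR alpha, 0.521 ± 0.145 FPKM at rank 15530. Vdr was last at 0.0361 ± 0.0254 FPKM and rank 24597. In 10 of 10 libraries each gene lay above the next in this order.

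The ranges over libraries overlapped for Nr1h3, at 0.716 to 1.39 FPKM, and Ppara, at 0.249 to 0.736 FPKM, and for no other neighbours. Within a library Nr1h3 was 1.18 to 4.42 times Ppara in FPKM. The closest pair without overlap was Nr1h2 and Ppard, where the ratio within a library was 1.22 to 1.56. The Ppard level depends on the gene model: its FPKM imply a length of 4656 bases, against 7514 exonic bases in GENCODE M21, and over the latter its mean would be 6.15 FPKM, at the same place in the order. For the other 5 genes the 2 lengths agreed within 1.01 times.

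**Figure D1:**
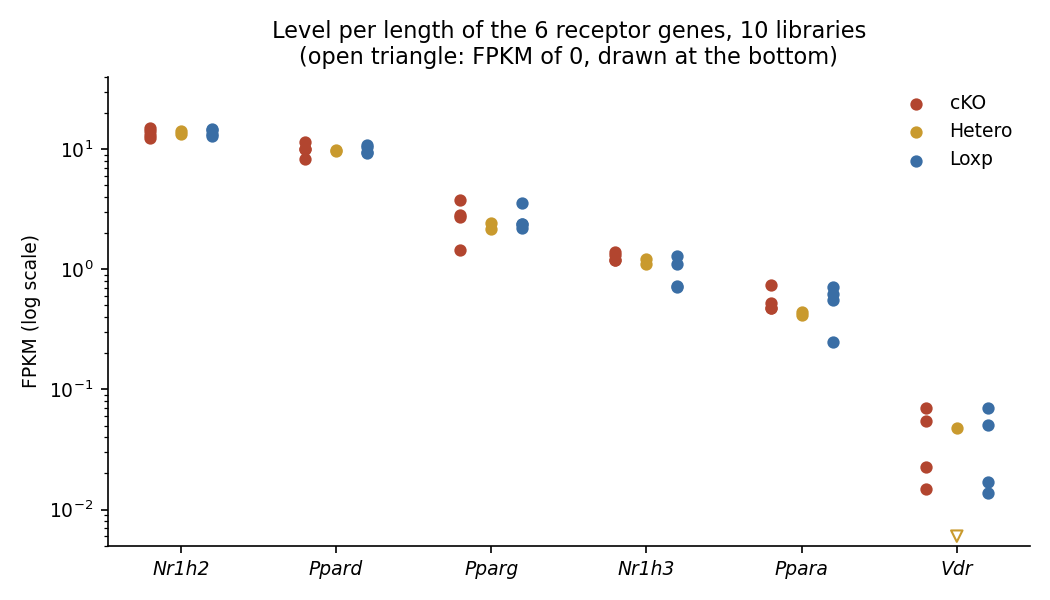
FPKM of the 6 receptor genes on a log axis, 1 point per library, with cKO left, Hetero in the middle and Loxp right within each gene, and the genes ordered by their mean. The order runs from Nr1h2 at a mean of 13.8 FPKM to Vdr at 0.0361 FPKM, and the open triangle is the Hetero library in which Vdr had no count.

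Among the liver X receptors, LXR alpha was the minor transcript in each group. Nr1h3 held 8.54% ± 0.908 of the summed FPKM of both genes in cKO, 7.8% ± 0.704 in Hetero and 6.42% ± 1.68 in Loxp (SD, n = 4, 2 and 4), and Nr1h2 held the rest. Of the summed FPKM of the 3 PPAR genes, Ppard held 75.7% ± 5.7 in cKO, 78.1% ± 1.52 in Hetero and 76.2% ± 3.34 in Loxp. Pparg held 20.0% ± 5.38 in cKO, 18.4% ± 1.44 in Hetero and 19.8% ± 2.72 in Loxp, and Ppara 4.29% ± 1.34, 3.45% ± 0.0752 and 3.99% ± 1.25 in the same groups. For each of these shares the group means lay within a few percentage points of each other. The Ppard share again rests on the length behind its FPKM.

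None of the 5 receptor genes tested was called in any of the 3 comparisons by edgeR's quasi-likelihood test at an adjusted p under 0.05, and each of their adjusted p-values was 1. The background was likewise empty, as 0% of the 18455 genes were called in each comparison. At an unadjusted p under 0.05, edgeR passed 466 genes (2.53%) for cKO against Loxp and 468 (2.54%) for Hetero against Loxp. For cKO against Hetero it passed 321 (1.74%), and in none of the 3 was a receptor gene among them. DESeq2 called 0, 20 and 3 genes in these comparisons and limma-voom 0 in each, with no receptor gene among them. The comparisons share their control libraries and are given side by side, not as repeats of each other.

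**Figure D2:**
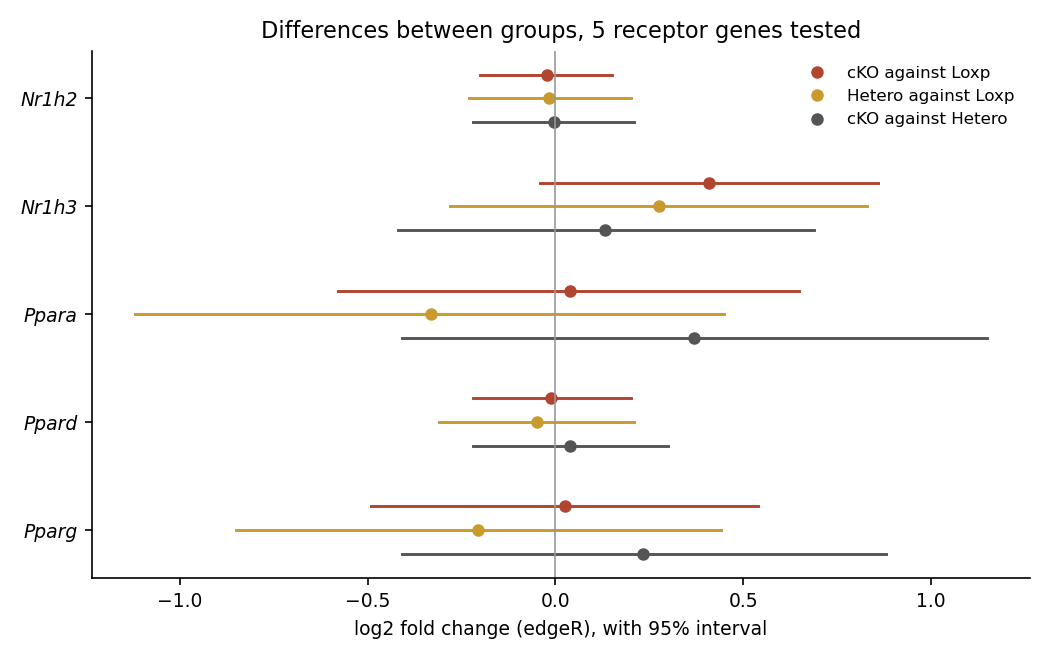
Log2 fold changes of the 5 receptor genes tested, from edgeR, with 95% intervals, with cKO against Loxp on top, Hetero against Loxp below it and cKO against Hetero last within each gene. Every interval crosses 0, and the one nearest to excluding it is Nr1h3 in cKO against Loxp, at -0.04 to 0.86.

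Nr1h3 lies on chromosome 2, minus strand, at 91184061 to 91202834 (GRCm38), 63.4 Mb from Rxra on the same chromosome. It had 3.31, 3.02, 3.03 and 3.51 CPM in cKO, 2.81 and 3.05 CPM in Hetero, and 2.79, 1.82, 1.85 and 3.23 CPM in Loxp. All 4 cKO libraries were above the Loxp mean, and 2 of the 4 were above every Loxp library, so the groups overlapped through Loxp 4. Nr1h3 averaged 3.22 ± 0.235 CPM in cKO and 2.42 ± 0.703 CPM in Loxp (SD, n = 4 each). The log2 fold change was 0.41 (SE 0.209), and the 95% interval of the fold ran from 0.971 to 1.81, which covers both no change and a rise by over 1.5 times. It did not pass the test, at an unadjusted p of 0.0714 and an adjusted p of 1 by edgeR. The exact two-sided permutation test of log2 CPM gave p = 0.0857, against a smallest possible 0.0286, and 0.971 after adjustment over 18 tests of the 6 genes in 3 comparisons.

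The depth behind Nr1h3 was modest, at 84, 70, 78 and 84 counts in cKO, 55 and 68 in Hetero, and 58, 38, 47 and 81 in Loxp. For the lowest library, Loxp 2, the exact 95% Poisson interval of its count was 26.9 to 52.2, and for Loxp 4 it was 64.3 to 101, so these 2 Loxp libraries differed beyond counting error, which is all that such intervals cover. The spread within Loxp was wider than that within cKO. Leaving out Loxp 4 raised the log2 fold change to 0.59 (SE 0.21, adjusted p 0.993 by edgeR), and leaving out Loxp 3 lowered it to 0.30. In the authors' deposited table the log2 fold change of cKO against Loxp was 0.411 with an adjusted p of 1. In Hetero, Nr1h3 lay inside the Loxp range, with a log2 fold change of 0.28 (SE 0.258) against Loxp. That value was 0.21 without Hetero 2, 0.16 without Loxp 3 and 0.46 without Loxp 4. The cKO libraries stood 0.13 (SE 0.256) above Hetero on the log2 scale, or 0.20 without Hetero 2 and 0.16 without cKO 2. Against Loxp, the cKO value was 0.44 without cKO 2.

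Nr1h3 was the receptor gene with the largest fold change estimate in cKO against Loxp, and one of its start regions is shown for comparison with those of Pparg. The sequence is a RefSeq promoter window of GRCm38.p6, chr2:91195067-91195366, minus strand, from 250 bases before to 50 bases after the annotated start. It holds no AGGTCA, the half-site to which RXR partners bind, on either strand, so it has no capitals.
Nr1h3 window 1: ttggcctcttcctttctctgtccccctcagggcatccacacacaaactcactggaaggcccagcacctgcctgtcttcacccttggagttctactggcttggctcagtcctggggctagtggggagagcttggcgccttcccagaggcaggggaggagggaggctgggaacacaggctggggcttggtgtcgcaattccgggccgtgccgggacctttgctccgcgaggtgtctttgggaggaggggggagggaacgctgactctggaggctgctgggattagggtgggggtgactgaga

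Its partner in the family, Nr1h2 (chromosome 7, minus strand, 44549616 to 44553951, GRCm38), was nearly level over the study. It had 41.9, 50.5, 44.4 and 47.8 CPM in cKO, 47.5 and 45.0 CPM in Hetero, and 45.5, 49.8, 43.4 and 48.7 CPM in Loxp, from 931 to 1223 counts per library. The 3 groups overlapped fully. Nr1h2 averaged 46.2 ± 3.77 CPM in cKO and 46.9 ± 2.92 CPM in Loxp (SD, n = 4 each), a log2 fold change of -0.02 (SE 0.0816). The 95% interval of that fold was 0.872 to 1.11, which bounds a difference between the group means more tightly than for any other of the receptors. Without cKO 2 it was -0.06. Against Loxp the Hetero libraries differed by -0.02 (SE 0.1) on the log2 scale, or 0.02 without Hetero 2. Against Hetero the cKO libraries differed by -0.0034 (SE 0.1), or -0.04 without Hetero 2 and -0.05 without cKO 2.

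Pparg (chromosome 6, plus strand, 115360951 to 115490399, GRCm38) was the receptor gene that varied most for its level. It had 7.99, 4.27, 8.44 and 11.2 CPM in cKO, 7.20 and 6.38 CPM in Hetero, and 6.55, 7.03, 7.07 and 10.6 CPM in Loxp. The highest libraries were cKO 4 and Loxp 4 and the lowest was cKO 2, so high and low values occurred in the same group, the low one in the cKO library that stood apart. From 99 counts in cKO 2 to 267 in cKO 4, the exact Poisson intervals were 80.5 to 121 and 236 to 301, far apart. The groups averaged 7.97 ± 2.83 CPM in cKO and 7.81 ± 1.87 CPM in Loxp (SD, n = 4 each), with a log2 fold change of 0.03 (SE 0.24) and a 95% interval of the fold of 0.712 to 1.46. This estimate turned with single libraries: it was 0.23 without cKO 2 and -0.18 without cKO 4, with neither called. Hetero averaged 6.79 ± 0.579 CPM (SD, n = 2), and its log2 fold change against Loxp was -0.21 (SE 0.301), or -0.12 without Hetero 2. The log2 fold change of cKO against Hetero was 0.23 (SE 0.3), or 0.15 without Hetero 2 and 0.44 without cKO 2.

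Within groups, the biological coefficient of variation of Pparg, the spread between libraries of a group beyond counting error, was 23.9%. Genes within 0.5 log2 CPM of its level had a median of 15.2%, and 93.6% of these 1749 genes had a lower value than Pparg. Ppara, at 25.9% against 22.3% for its like, was above 73.0% of the genes of its level. Ppard, at 10.6% against 10.1%, and Nr1h3, at 18.7% against 20.2%, lay near the middle, and Nr1h2, at 9.21% against 10.1%, lay in the lower part. The ratio of the highest to the lowest of the 10 libraries was 2.61 for Pparg in CPM, 2.95 for Ppara, 1.93 for Nr1h3, 1.38 for Ppard and 1.2 for Nr1h2.

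**Figure D3:**
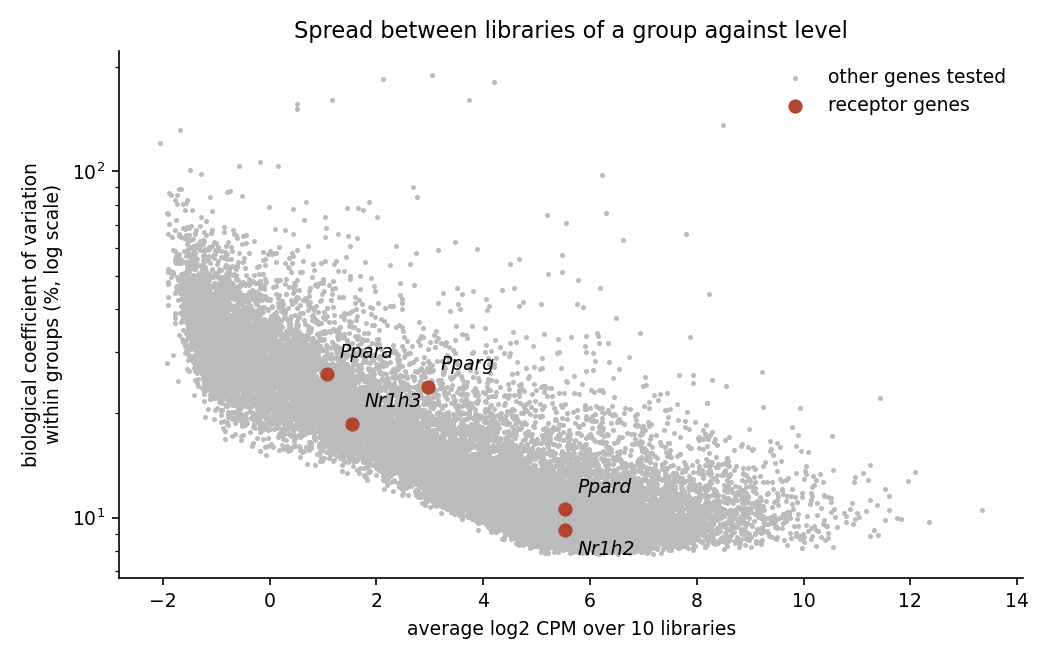
Biological coefficient of variation within groups, in percent on a log axis, against the average log2 CPM over 10 libraries, for the 5 receptor genes in red and all other genes tested in grey. Pparg, at 23.9%, sits high among genes of its level, where the median is 15.2%, while Nr1h2 at 9.21% sits below the median of 10.1% for its level.

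Marker sums of several cell types differed between the libraries at the ends of the Pparg range. Those of oligodendrocytes, interneurons and oligodendrocyte precursors did not follow it through all 10. The 10 oligodendrocyte markers, all tested, summed to 6280 CPM in cKO 2, where Pparg was lowest, and to 10300 CPM in cKO 4 and 11100 CPM in Loxp 4, where it was highest. In cKO 3, next below these libraries in Pparg, the sum was 8720 CPM, below the 9800 CPM of Hetero 1. The 8 interneuron markers summed to 743 CPM in cKO 2 and 1140 CPM in cKO 4, but to 1110 CPM in Loxp 1, where Pparg was 6.55 CPM. The 6 markers of oligodendrocyte precursors were high in cKO 2, at 481 CPM, and alike at 248 CPM in cKO 4 and Loxp 1. Other lists also differed between cKO 2, cKO 4 and Loxp 4. In that order, meningeal fibroblast markers summed to 80, 159 and 130 CPM, and pericyte and smooth muscle markers to 241, 183 and 185 CPM. Microglia and macrophage markers summed to 366, 321 and 305 CPM, and astrocyte markers to 5480, 4980 and 4980 CPM. Endothelial markers did not separate them, at 504, 535 and 492 CPM. By group, the oligodendrocyte sum was 6280 to 10300 CPM in cKO, 6720 to 9800 CPM in Hetero and 8730 to 11100 CPM in Loxp, and no gene of these lists was at 0 in any group. The part of these cells in the Pparg values was not tested. In whole tissue, fewer cells of a type and less RNA per cell cannot be told apart.

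Start regions of Pparg are shown because 2 of its 3 RefSeq windows (GRCm38.p6, plus strand) are the only ones among 9 windows of the 6 receptor genes that hold the AGGTCA half-site, searched on both strands and set in capitals. Over all 32851 RefSeq windows of the same length, 16.3% hold it. In the first window, chr6:115360894-115361193, its first base is at position -28 from the annotated start, and in the second, chr6:115362099-115362398, at position -9.
Pparg window 1: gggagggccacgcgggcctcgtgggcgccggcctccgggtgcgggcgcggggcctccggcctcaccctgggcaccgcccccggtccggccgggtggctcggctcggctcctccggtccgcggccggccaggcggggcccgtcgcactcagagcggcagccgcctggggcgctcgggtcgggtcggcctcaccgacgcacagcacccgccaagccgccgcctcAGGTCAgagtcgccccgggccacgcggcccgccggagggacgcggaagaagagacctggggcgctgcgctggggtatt
Pparg window 2: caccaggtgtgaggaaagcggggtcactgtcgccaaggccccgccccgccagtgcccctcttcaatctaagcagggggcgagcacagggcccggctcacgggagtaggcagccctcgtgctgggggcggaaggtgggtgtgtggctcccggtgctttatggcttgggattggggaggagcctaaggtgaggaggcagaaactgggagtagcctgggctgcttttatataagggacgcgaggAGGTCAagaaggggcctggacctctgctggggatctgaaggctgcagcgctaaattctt
Repeats of the half-site in the same direction, AGGTCANAGGTCA, AGGTCANNNAGGTCA and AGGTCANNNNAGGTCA, the spacings associated with PPAR, vitamin D receptor and LXR pairs, were found in 13, 2 and 5 of all windows and in none of the 9. A match describes letters of the window and does not show binding.

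Ppard (chromosome 17, plus strand, 28232700 to 28301474, GRCm38) had 38.9, 46.4, 46.5 and 53.6 CPM in cKO, 44.7 and 45.5 CPM in Hetero, and 43.5, 43.9, 49.2 and 50.1 CPM in Loxp. Both the lowest and the highest of the 10 libraries were cKO, and the groups overlapped. It averaged 46.3 ± 6.03 CPM in cKO and 46.7 ± 3.46 CPM in Loxp (SD, n = 4 each), with a log2 fold change of -0.01 (SE 0.0969) and a 95% interval of the fold of 0.859 to 1.15. Without cKO 2 it was -0.01. In Hetero the log2 fold change against Loxp was -0.05 (SE 0.119), or -0.06 without Hetero 2. In cKO against Hetero it was 0.04 (SE 0.119), 0.05 without Hetero 2 and 0.04 without cKO 2.

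Ppara (chromosome 15, plus strand, 85734983 to 85802819, GRCm38) had 2.84, 1.86, 1.83 and 2.0 CPM in cKO, 1.68 and 1.62 CPM in Hetero, and 0.963, 2.15, 2.40 and 2.75 CPM in Loxp. The lowest library was Loxp 1, with 20 counts and an exact Poisson interval of 12.2 to 30.9, apart from the 32.8 to 60.2 around the 45 counts of Loxp 2. Ppara averaged 2.13 ± 0.476 CPM in cKO and 2.06 ± 0.775 CPM in Loxp (SD, n = 4 each), and the log2 fold change was 0.04 (SE 0.285). Its 95% interval of the fold, 0.67 to 1.57, was the widest of the 5 in this comparison. The estimate was -0.19 without Loxp 1, 0.21 without Loxp 4 and 0.10 without cKO 2, again with none called.

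Ppara was also the receptor gene whose groups did not overlap in 1 comparison, since all 4 cKO libraries lay above both Hetero libraries. This held for 1 of the 5 genes tested, against a background of 9.43% of all genes in either direction and 4.9% in this direction. The log2 fold change of cKO against Hetero was 0.37 (SE 0.364), with a 95% interval of the fold of 0.75 to 2.22 and an adjusted p of 1 by edgeR. It was 0.34 without Hetero 2, 0.43 without cKO 2 and 0.20 without cKO 1. The exact two-sided permutation test gave p = 0.133, or 0.971 adjusted over 18 tests. With 4 against 2 libraries there are 15 arrangements, and the observed one was already the most extreme in this direction. The test could therefore not give a smaller p here, and it cannot decide whether the groups differ. The Hetero values lay inside the Loxp range, at a log2 fold change of -0.33 (SE 0.365) against Loxp, and this was -0.30 without Hetero 2, -0.56 without Loxp 1 and -0.15 without Loxp 4. No receptor gene was free of overlap in cKO against Loxp, where 1.54% of all genes were, or in Hetero against Loxp, where 11.4% were.

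Vdr (chromosome 15, minus strand, 97854425 to 97910630, GRCm38) was close to the limit of detection. It had 10, 3, 8 and 2 counts in cKO, 0 and 6 counts in Hetero, and 6, 2, 2 and 10 counts in Loxp, in all 23, 6 and 20 counts in these groups. Its CPM averaged 0.229 ± 0.147 in cKO and 0.215 ± 0.155 in Loxp (SD, n = 4 each), with the highest library at 0.394 CPM in cKO and 0.398 CPM in Loxp. The library with no count, Hetero 1, allows a level of up to 0.155 CPM at a floor of 3 counts. A difference between groups was not detectable at this depth: in a fit without the filter, the log2 fold change of cKO against Loxp was 0.10 with an SE of 0.722.

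**Figure D4:**
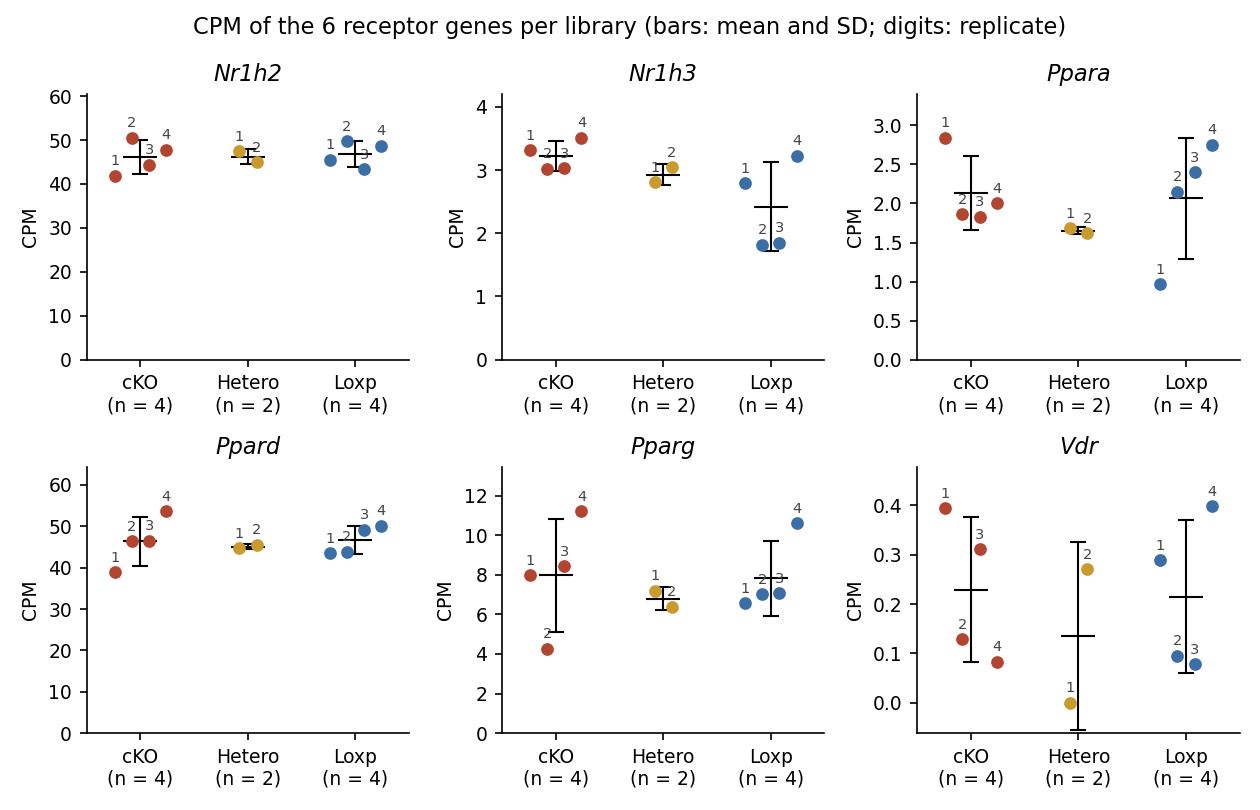
CPM of each receptor gene per library, with cKO, Hetero and Loxp from left to right, digits for the replicate number, and bars for the mean and SD (n = 4, 2 and 4). Points of the groups intermix in each gene except Ppara in cKO and Hetero, and the 2 low Nr1h3 points are Loxp 2 and Loxp 3.

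The other genes of these pathways were read from 10 lists, which hold 153 genes beside the receptors, 124 of them tested. In cKO against Loxp, 72 were higher and 52 lower, and their median was 0.03 on the log2 scale; in all genes tested 50.1% were higher with a median of 0.000328. By edgeR 0 of the 124 passed an adjusted p under 0.05 in any comparison, and 3 of them, or 2.42%, had an unadjusted p under 0.05 in each, near the share of all genes. In cKO against Loxp these were Nr4a1, Cdkn1a and Gdnf, all 3 with lower levels in cKO. Without cKO 2, 67 of 122 genes were higher and 55 lower. By edgeR 2 of these 122 then had an unadjusted p under 0.05, 1 liver X receptor target and 1 gene of lipid ligand handling. None of Nr4a1, Cdkn1a and Gdnf kept an unadjusted p under 0.05 without cKO 2. Genes on these lists are given by their values, since none passed the test.

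The RXR partners of the receptors came first. Rxrb, at 107 ± 3.99 CPM in cKO and 104 ± 7.79 CPM in Loxp, was the most counted of the 3 and had a log2 fold change of 0.03 (SE 0.0733). Rxrg, which marks striatal neurons in the forebrain among other cells, had 13.9, 3.41, 10.5 and 4.76 CPM in cKO, 8.73 and 6.51 CPM in Hetero, and 22.3, 1.15, 11.4 and 5.66 CPM in Loxp. It was low and high in both large groups, at a log2 fold change of -0.31 (SE 0.602). Of the 8 tested among 10 other receptors that pair with RXR, 3 were higher and 5 lower in cKO than in Loxp, with a median of -0.08. They include Nr4a1, an activity-induced orphan receptor, which had 171 ± 49.2 CPM in cKO and 270 ± 117 CPM in Loxp (log2 fold change -0.66, SE 0.26, or -0.58 without cKO 2), and Thrb, a thyroid hormone receptor, at -0.15 (SE 0.107).

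All 18 coactivators and corepressors were tested, 13 higher and 5 lower in cKO than in Loxp, and their median was 0.02. The coactivator Ppargc1b averaged 14.1 ± 3.19 CPM in cKO and 11.5 ± 2.77 CPM in Loxp (0.28, SE 0.182).

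On the ligand side of the liver X receptors, 9 of 10 oxysterol enzyme genes were tested, 6 higher and 3 lower, with a median of 0.07. Cyp46a1, the neuronal enzyme that makes 24-hydroxycholesterol, averaged 307 ± 21.1 CPM in cKO and 299 ± 37.1 CPM in Loxp (0.04, SE 0.0944). Ch25h, which makes 25-hydroxycholesterol, was at 0.372 CPM in cKO and 0.289 CPM in Loxp. Ebp, an isomerase of cholesterol synthesis, averaged 14.3 ± 1.23 CPM in cKO and 16.5 ± 1.2 CPM in Loxp (-0.21, SE 0.0993), and Cyp39a1, an oxysterol hydroxylase, had a log2 fold change of -0.33 (SE 0.251).

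Of 26 liver X receptor target genes 20 were tested, 10 higher and 10 lower in cKO than in Loxp, and their median was 0.02. The cholesterol exporter Abca1 had 44.6, 55.4, 43.1 and 41.8 CPM in cKO, 39.7 and 40.7 CPM in Hetero, and 31.8, 47.6, 42.6 and 40.8 CPM in Loxp. It overlapped between cKO and Loxp (0.18, SE 0.121, or 0.09 without cKO 2, its highest library). Abcg1, another exporter, was at 0.09 (SE 0.0952), its relative Abcg4 at 0.15 (SE 0.0883), and the lipogenic factor Srebf1 at 0.09 (SE 0.0983). Apoe, the main lipoprotein component of brain, averaged 1850 ± 165 CPM in cKO and 1900 ± 214 CPM in Loxp (-0.03, SE 0.0942). Mylip, the ligase that degrades the LDL receptor, averaged 22 ± 1.95 CPM in cKO and 25.1 ± 2.32 CPM in Loxp (-0.19, SE 0.103). The targets thus lay on both sides of 0 in cKO against Loxp, and without cKO 2 there were 9 higher and 11 lower. In Hetero against Loxp 6 were higher and 14 lower, with a median of -0.05, where 48.2% of all genes were higher. Without Hetero 2 the count was 7 and 14 of 21. Most markers of 3 glial types were lower in Hetero: 8 of 10 astrocyte, 10 of 11 microglia and macrophage and 10 of 10 oligodendrocyte. Without Hetero 2 these counts were 7, 10 and 3, so 7 of the 10 oligodendrocyte markers were then higher. Oligodendrocyte precursor markers went the other way, with 4 higher and 2 lower of 6, or 5 and 1 without Hetero 2. None of these markers passed the test, and their part in the target values was not tested.

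Fatty acid and lipid ligand genes numbered 17, of which 15 were tested, 9 higher and 6 lower, with a median of 0.02. The fatty acid carriers Fabp5 and Fabp7 had log2 fold changes of 0.05 (SE 0.125) and 0.19 (SE 0.423), the second turning to -0.60 (SE 0.24, adjusted p = 1 by edgeR) without cKO 2. The prostaglandin synthases Ptgs2 and Ptgs1 were at -0.31 (SE 0.198, or -0.15 without cKO 2) and 0.15 (SE 0.108). Of 30 PPAR alpha targets 24 were tested, 14 higher and 10 lower, with a median of 0.05, but 8 higher and 16 lower, with a median of -0.05, without cKO 2. Among them, Cpt1a, which admits long-chain fatty acids to mitochondria, averaged 29.4 ± 3.58 CPM in cKO and 28.0 ± 3.24 CPM in Loxp (0.07, SE 0.106). The beta-oxidation enzymes Acadvl and Hadhb were at -0.13 (SE 0.0927) and -0.14 (SE 0.104).

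Of 23 targets of PPAR delta and gamma 17 were tested, 12 higher and 5 lower in cKO than in Loxp, with a median of 0.06. Pdk4, a kinase that restrains glucose oxidation, was at 0.11 (SE 0.197), the secreted lipase inhibitor Angptl4 at 0.31 (SE 0.316) and the lipid droplet coat gene Plin2 at -0.00002 (SE 0.197). Cd36, a fatty acid receptor, was scarce and uneven, with 0.984, 1.42, 0.195 and 0.251 CPM in cKO, 0.459 and 1.35 CPM in Hetero, and 0.433, 0.335, 0.118 and 0.239 CPM in Loxp. Its log2 fold change was 1.35 (SE 0.665) in cKO against Loxp and 1.71 (SE 0.767) in Hetero against Loxp, with the higher Hetero value in Hetero 2 and the highest cKO value in cKO 2. Without these libraries, the values were 0.79 for cKO and 0.73 for Hetero.

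The enzymes that activate and degrade vitamin D were scarce like its receptor. Of 8 genes for synthesis, breakdown and carriers 6 were tested, 2 higher and 4 lower in cKO than in Loxp, with a median of -0.16. The activating enzyme Cyp27b1 was at 0.539 CPM in cKO and 0.625 CPM in Loxp (-0.21, SE 0.384). The degrading enzyme Cyp24a1, the classic target of the receptor, was too low to test, at 0.0317 CPM in cKO, 0.128 CPM in Hetero and 0.205 CPM in Loxp. Cyp27a1, which hydroxylates sterols and vitamin D, was at -0.22 (SE 0.207), and Pdia3, an abundant chaperone proposed as a membrane receptor for calcitriol, averaged 171 ± 13.1 CPM in cKO and 184 ± 18.9 CPM in Loxp (-0.11, SE 0.0895). Of 20 vitamin D receptor targets 12 were tested, 4 higher and 8 lower, with a median of -0.07. The list summed to 639 CPM in cKO 2 against 1040 to 1080 CPM in the other cKO libraries. Most of that gap lay in a single gene, Atp2b1, at 435 CPM in cKO 2 and 805, 812 and 762 CPM in the others. Without cKO 2, 7 of the targets were higher and 5 lower. The cell cycle inhibitor Cdkn1a had 29.7, 25.2, 40.1 and 35.4 CPM in cKO and 52.1, 37.2, 38.0 and 39.6 CPM in Loxp, where 3 of 4 cKO libraries were below every Loxp library (-0.35, SE 0.14, or -0.25 without cKO 2). Gdnf, a neurotrophic factor named here for its unadjusted p, had 0.276, 0.0431, 0.195 and 0.167 CPM in cKO and 0.433, 0.191, 0.864 and 0.438 CPM in Loxp (-1.48, SE 0.596, or -1.18 without cKO 2).

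With Hetero as the group set against Loxp, 64 of the 124 pathway genes were higher and 60 lower, with a median of 0. The 3 with an unadjusted p under 0.05 were Cd36, Nr4a1 and Agpat2, an enzyme of phosphatidic acid synthesis. Nr4a1 had 150 and 113 CPM in Hetero and 241, 152, 253 and 433 CPM in Loxp (log2 fold change -1.04, SE 0.334, or -0.85 without Hetero 2), without overlap. Agpat2 had 0.766 and 0.943 CPM in Hetero and 0.193, 0.478, 0.354 and 0.518 CPM in Loxp (1.13, SE 0.443, or 0.97 without Hetero 2), also without overlap and at low levels. Of all genes tested, 11.4% were without overlap in this comparison. Without Hetero 2, 58 of 126 pathway genes were higher and 68 lower, and none had an unadjusted p under 0.05. By list, PPAR alpha targets were higher for 10 and lower for 14 of 24 in Hetero than in Loxp, with a median of -0.06, and for 9 and 16 of 25 without Hetero 2. Vitamin D receptor targets were higher for 5 and lower for 7 of 12, with and without Hetero 2.

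Between the groups that both carry Nex-cre, 74 of the 124 genes were higher in cKO than in Hetero and 50 lower, with a median of 0.03, where 52.5% of all genes tested were higher. Without Hetero 2, 72 of 126 were higher, and without cKO 2, 70 of 122. The 3 with an unadjusted p under 0.05 were Rxra (0.30, SE 0.14, or 0.40 without Hetero 2), Mertk and Ucp2, an inner mitochondrial membrane carrier. Mertk, a phagocytic receptor induced by liver X receptors in macrophages, had 40.5, 45.1, 45.1 and 53.4 CPM in cKO and 35.5 and 37.4 CPM in Hetero (0.34, SE 0.134, or 0.38 without Hetero 2), without overlap. Of all genes tested, 9.43% were without overlap in this comparison, and 4.9% in this direction. Liver X receptor targets were higher for 15 and lower for 5 of 20 in cKO than in Hetero, with a median of 0.06, and PPAR alpha targets for 16 and 8 of 24, with a median of 0.08. Without Hetero 2 these counts were 14 and 7 of 21, and 17 and 8 of 25; without cKO 2 they were 12 and 8 of 20, and 15 and 9 of 24. The 10 astrocyte markers were all higher in cKO than in Hetero as well, or 9 of them without Hetero 2 and 8 without cKO 2, with summed levels of 4980 to 5480 CPM in cKO and 4770 CPM in both Hetero libraries, and 10 of 11 microglia and macrophage markers were higher, at 311 to 366 CPM in cKO and 288 to 289 CPM in Hetero. Other marker lists did not all share this direction. Oligodendrocyte markers were higher for 8 and lower for 2 of 10, but for 0 and 10 without Hetero 2, and for 9 and 1 without cKO 2. Oligodendrocyte precursor markers were higher for 4 and lower for 2 of 6, but for 3 and 3 without Hetero 2, and for 0 and 6 without cKO 2. All 10 meningeal fibroblast markers were lower in cKO, or 9 of them without either library. None of these markers passed the test, and their part in the values of the target genes was not tested.

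**Figure D5:**
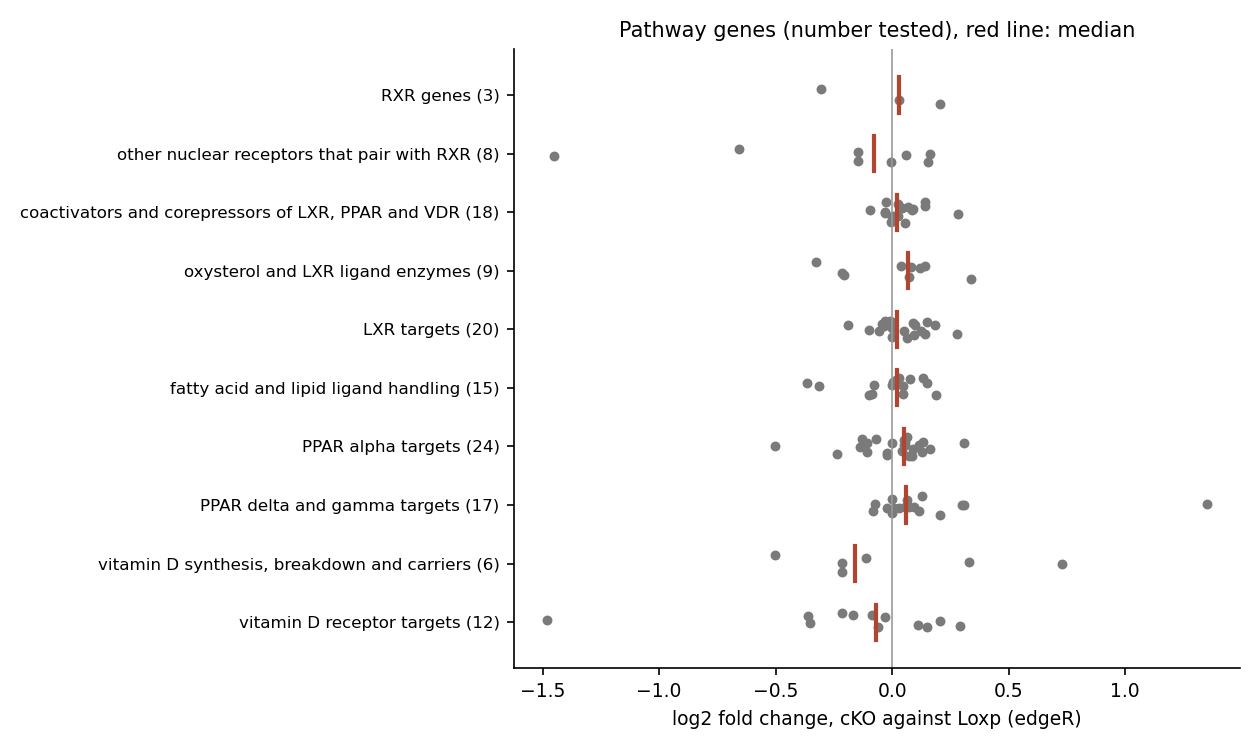
Log2 fold changes of cKO against Loxp by edgeR for the tested genes of each pathway list, 1 point per gene and a red line at the median, with the number tested in brackets. The medians lie between -0.16 and 0.07, and in each list points fall on both sides of 0.

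Across the 10 libraries, the genes most like each receptor in log2 CPM were sought by Pearson's r among 13306 genes, as a description without a test, since libraries share groups and depth. Nr1h2 was most like Tjap1 (r = 0.96, Spearman's rho = 0.952), Crocc and Pnlip, and the r of Tjap1 was 0.921 without the 2 libraries farthest from the Nr1h2 median. Pparg was most like Ogt (r = 0.981, rho = 0.952, and r = 0.948 without cKO 2 and cKO 4), Tmem132d and Kctd8. Ppard was most like Mgll (r = 0.909, rho = 0.915, and r = 0.891 without cKO 1 and cKO 4), Grip2 and Rell2. For Ppara the closest were Creb5 (r = 0.936, rho = 0.867, and r = 0.756 without Loxp 1 and cKO 1), Nt5dc3 and Zkscan1. Nr1h3 stood out from these, because its likeness to Aifm2 (r = 0.922, rho = 0.576) and Pnldc1 (r = 0.888, rho = 0.479) rested on Loxp 2 and Loxp 3, without which r was 0.333 and 0.137. Ccser1 was in between (r = 0.901, rho = 0.794, and r = 0.508 without them).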

How the data were processed

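RNA was sequenced from 10 S1BF samples. Per the labels' protocols, libraries were made from total RNA with the NEBNext Ultra kit. Per the submitters' processing notes, the authors used featureCounts 1.5.0-p3 and mm10, and the deposited values are raw counts for each gene. The aligner, annotation and strand use: not given in the sources used here. The authors also deposited FPKM per library, and log2 fold changes with p-values of their own tests, whose tool is not stated either. Overlapping exons touch Nr1h3 only, by 34 bases.

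Counts were fitted with edgeR 4.0.16 (R 4.3.3; TMM, filterByExpr, glmQLFit, glmQLFTest) over all 10 libraries with a mean per group, and p-values were adjusted by Benjamini-Hochberg over 18455 genes. The common biological coefficient of variation was 14.9%. CPM use TMM-scaled totals, and log2 CPM a prior count of 2. No library duplicated another, with a chi-square per gene of at least 4.96 within groups. FPKM served to order the genes, and in a limma 3.58.1 alternative at log2(FPKM + 0.1); DESeq2 1.42.0 was another. The alternatives also included no filter, other normalizations and each library left out; the counts of pathway genes without Hetero 2 or cKO 2 were added after the data were seen. Gene models are from GENCODE M21. From each list, the 2 genes with the smallest p in cKO against Loxp and a mean of at least 1 CPM are named, with the RXR genes and chosen ligand enzymes and targets; some genes that this rule names are not reported here. Per receptor, the 3 genes with the highest r are named. The receptors, lists and tests were chosen with earlier results of these data known.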

Additional observations from a re-analysis of the deposited data

Results flagged for a closer look

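Pparg in the Loxp group is given here because its highest library, Loxp 4 at 10.6 CPM, lay far from the other 3, at 6.55, 7.03 and 7.07 CPM. The gap was 0.87 of the range of the group, above the 95% critical value of Dixon's test for 4 samples, a limit that chance passes in about 1 in 20 groups. Without Loxp 4, the log2 fold change of Hetero against Loxp was -0.01 by edgeR, against -0.21 with it, and neither was called.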

How the results depend on the processing

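No receptor gene was called under any alternative. Of 253 recomputed fold changes of the receptors, 222 kept their sign and 31 turned it, and the smallest adjusted p was 0.922. The sign of Nr1h3 held in all of them: in cKO against Loxp its log2 fold change ranged from 0.2951 without Loxp 3 to 0.5901 without Loxp 4. Among the alternatives that did not leave out a single library, its unadjusted p was under 0.05 with the replicate block (0.0449), limma-voom (0.0486) and limma on FPKM (0.0476), with adjusted p near 1. Its unadjusted p-values with a library left out are not given here.

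The count of all genes called did depend on the setting. Without a low-count filter it was 32 in cKO against Loxp, 68 in Hetero against Loxp and 39 in cKO against Hetero. With DESeq2 it was 20 in Hetero against Loxp and 3 in cKO against Hetero. The replicate block gave 1 in cKO against Loxp and 1 in Hetero against Loxp. Leaving out a library gave 0 to 1 in cKO against Loxp (1 without cKO 2), 0 to 15 in Hetero against Loxp and 0 to 14 in cKO against Hetero (both highest without Hetero 1). The cause was not tested.

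Signs turned as follows. In cKO against Loxp, Pparg was -0.002697 with the replicate block, -0.02891 with limma-voom and -0.01992 with limma on FPKM. In Hetero against Loxp, the block gave 0.058 for Ppard and 0.07938 for Pparg, and Xist as a covariate gave 0.002323 for Ppard. The level of Xist varied widely between libraries of a group, with a biological coefficient of variation of 135.91%, and sex was not a term of the main fit. In cKO against Hetero, the block gave 0.005279 for Nr1h2, -0.0732 for Ppard and -0.08207 for Pparg, no filter gave 0.005109 for Nr1h2, and Xist gave -0.05097 for Ppard. Leaving out single libraries, cKO against Loxp ran from -0.06471 to 0.0217 for Nr1h2, -0.1917 to 0.2145 for Ppara, -0.0867 to 0.06511 for Ppard and -0.1771 to 0.2338 for Pparg. Hetero against Loxp ran from -0.0563 to 0.02245 for Nr1h2. For cKO against Hetero the range was -0.05155 to 0.04009 for Nr1h2 and -0.04247 to 0.1145 for Ppard.

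The labels do not say whether the replicate numbers pair the samples, and the main fit used no pairing. Deviations of same-numbered cKO and Loxp libraries correlated at 0.0952, 0.199, 0.0419 and 0.322. Each of these 8 libraries correlated best with its own number, a hint of pairing from the data that the labels do not settle. Same-numbered pairs with Hetero showed no such pattern. Hetero 1 correlated at -0.0257 with Loxp 1 and 0.023 with cKO 1, and Hetero 2 at -0.00815 with Loxp 2 and -0.0151 with cKO 2. In CPM in place of FPKM, 11 of 15 shares of the LXR and PPAR sums moved by over 1 SD, such as Ppard at 82.2% in cKO. Depth limits Vdr, Ppara and Nr1h3, whose lowest libraries held 0, 20 and 38 counts.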
